A study of Mus musculus with 6 samples.

Results

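The class II antigen presentation genes described here are H2-Eb1 and H2-Eb2, which encode class II beta chains, H2-DMa, H2-DMb1 and H2-DMb2, which encode the chains of the peptide-loading chaperone DM, and H2-Ob, which encodes the beta chain of the DM inhibitor DO. They were chosen by name from the 10772 genes for which the deposited count tables hold a row over at least 50 bp of exon of that gene and of no other; where several rows do, the most-counted one stands for the gene. All 6 passed the filter on low counts. The tumours grew from LG1233-OVA, a murine lung cancer line whose name marks the model antigen ovalbumin. CRISPR/Cas9 had been used to make stable lines with a guide against Uhrf1 (sgUhrf1, a knockout line per the labels), and the controls carried sgNT and are labelled wild type. Female C57BL/6 mice received 1000000 cells under the skin in both groups, and whole tumours were taken on day 27, 3 per group, each labelled a biological replicate. Cancer cells and host cells were therefore measured together, and the host cells of both groups carry an intact Uhrf1 gene. The labels do not give the mice's age, the guide sequences or the number of clones behind a line. In such bulk samples, more cells of a type and more RNA per cell cannot be told apart.

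Class II molecules are pairs of an alpha and a beta chain that show peptides from endosomes to CD4+ T cells. Dendritic cells, macrophages and B cells make them constitutively or on activation, and many other cells make them after interferon-gamma, through the coactivator CIITA, which works with the RFX, NF-Y and CREB factors on the X and Y boxes of class II promoters. In the endosome, DM removes the invariant chain remnant from the groove and lets peptide bind, while DO, found mostly in B cells, holds DM back. In the H-2b haplotype of C57BL/6 the alpha chain gene of the I-E molecule is not expressed, so H2-Eb1 RNA is made without a surface I-E molecule.

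All 6 genes lie on the plus strand of chromosome 17 (GRCm38, GENCODE M21). H2-DMa spans chr17:34119541-34139101, H2-DMb2 chr17:34143307-34151555, H2-DMb1 chr17:34153072-34160230, H2-Ob chr17:34238903-34254414, H2-Eb1 chr17:34305867-34316674 and H2-Eb2 chr17:34325665-34341412. The row that stands for H2-Eb1 covers 114 bp, all of them coding and all in exon 3, which encodes the membrane-proximal domain. This is the shortest exon overlap among the 6, and a second H2-Eb1 row, with 39 bp, fell short of the 50 bp minimum. The H2-DMb1 row covers 333 bp of exons 5 and 6, of which 294 bp are untranslated. The H2-DMb2 row covers 813 bp of exons 3 to 6. The H2-DMa row covers 1338 bp of exon, the H2-Ob row 1338 bp and the H2-Eb2 row 2701 bp.

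The rows also take in introns and, for some, sequence outside the gene, because the intervals that were counted belong to another build. The H2-Eb1 row spans 1938 bp, with 433 bp of its gene's introns and 1391 bp outside the gene. The H2-DMb1 row spans 2889 bp, with 186 bp of intron and 2370 bp outside the gene. The H2-DMa row holds 1335 bp of its gene's introns, the H2-Eb2 row 4929 bp and the H2-Ob row 1905 bp. The H2-DMb2 row holds 1316 bp of H2-DMb2 intron and 1484 bp of H2-DMb1 intron. Reads were counted without strand, so RNA from the opposite strand is not separated from these genes.

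The 6 include 2 pairs of close copies, and their coding sequence was compared. Untranslated sequence, which makes up 294 of the 333 exon bp in the H2-DMb1 row, was not compared. H2-DMb1 and H2-DMb2 have 783 coding bases in exons of equal length and differ at 32 of them (95.9% identical), with a longest identical run of 221 bases in exon 3. Exon 4, which encodes the membrane-spanning segment, has the same 117 bases in both genes (chr17:34159344-34159460 in H2-DMb1, chr17:34150506-34150622 in H2-DMb2), and 103 of them lie in the H2-DMb2 row while none lies in the H2-DMb1 row. The values of H2-DMb2 are therefore uncertain wherever the counting could place H2-DMb1 reads on it or drop reads that match both. This shared exon is shown in lower case because no base differs.
H2-DMb1 and H2-DMb2, exon 4: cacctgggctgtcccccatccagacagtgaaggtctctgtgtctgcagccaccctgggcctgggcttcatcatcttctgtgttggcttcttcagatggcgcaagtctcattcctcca

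H2-Eb1 and H2-Eb2 differ more. Over the 114 counted bases of H2-Eb1 exon 3 (chr17:34314170-34314283), H2-Eb2 (chr17:34334209-34334322) differs at 9, so 92.1% are identical. Capitals mark the bases at which the pair differs.
H2-Eb1: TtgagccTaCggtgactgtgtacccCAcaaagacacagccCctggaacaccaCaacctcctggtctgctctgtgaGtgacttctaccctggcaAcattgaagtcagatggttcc
H2-Eb2: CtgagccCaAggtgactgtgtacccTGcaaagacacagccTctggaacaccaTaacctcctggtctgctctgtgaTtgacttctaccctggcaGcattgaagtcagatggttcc

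The promoters of the class II genes were read for the boxes through which CIITA acts. The RefSeq promoter table (GRCm38.p6) gives 300 bases per start, 250 before it and 50 after. An X core was searched as AACNNATG and a Y box as ATTGG, the inverted CCAAT letters, with the Y box after the X core on the same strand, at most 60 bases on and not overlapping it; both strands were read. The pair was found in 5 of the 6 genes, H2-Eb1, H2-Eb2, H2-DMb1, H2-DMb2 and H2-Ob, each on the strand of the gene. Of all 32851 promoter windows, 162 (0.493%) hold the pair, while 8.86% hold the X core and 37.4% the Y box. Neither of the 2 H2-DMa windows holds the pair, nor do those of the related genes H2-Oa and H2-Aa. On the strand of the gene, a Y box without an X core was found in 1 H2-DMa window and in the windows of H2-Oa and H2-Aa. Single boxes on the other strand are not given for these windows. A match is a description of letters, not of a bound site, and the letters sought are narrower than what the factors are known to bind. H2-Ab1 has no entry in the table.

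The stretches around both boxes are shown because they are the sequence feature that most of these genes share. Capitals mark the X core and the Y box. H2-Eb1 is chr17:34305770-34305818, H2-Eb2 chr17:34325537-34325585, H2-DMb2 chr17:34145120-34145169 and H2-Ob chr17:34238812-34238858. The H2-DMb1 stretch, chr17:34153091-34153120, lies in the first exon of that gene as GENCODE draws it and is shown only around the X core; its Y box follows 23 bases after that core.
H2-Eb1: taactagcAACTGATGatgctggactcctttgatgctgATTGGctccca
H2-Eb2: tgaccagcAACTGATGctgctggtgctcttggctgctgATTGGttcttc
H2-DMb1: tacctagtAACTGATGatgctaggctgatt
H2-DMb2: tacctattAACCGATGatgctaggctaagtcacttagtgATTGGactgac
H2-Ob: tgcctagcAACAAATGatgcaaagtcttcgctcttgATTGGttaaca
The core matched by H2-Eb1, H2-Eb2 and H2-DMb1 was the same 8 letters, AACTGATG, and H2-DMb2 (AACCGATG) and H2-Ob (AACAAATG) differed from it within the free positions. The gap between the boxes was 22 bases in H2-Eb1 and H2-Eb2, 23 in H2-DMb1 and H2-DMb2, and 20 in H2-Ob. The X core began 89 bases before the RefSeq start in H2-Eb1, 92 in H2-DMb1 and 85 in H2-Ob, and lay further out, at 130 and 121 bases, in H2-Eb2 and H2-DMb2.

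**Figure D1:**
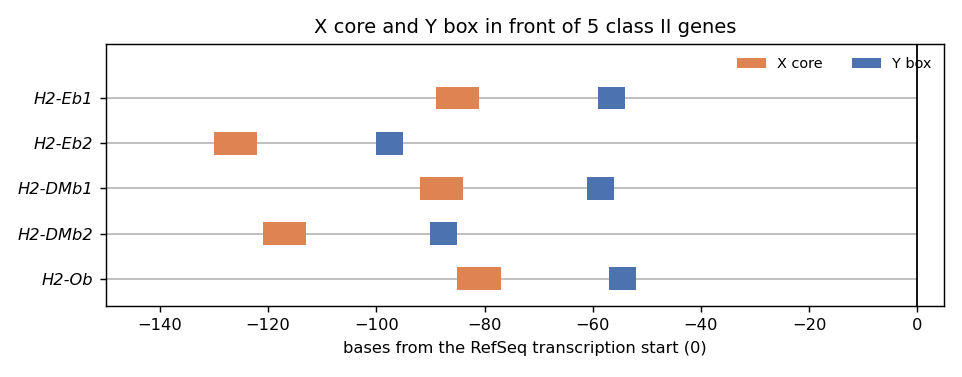
Position of the X core (orange) and the Y box (blue) in the RefSeq promoter windows of 5 class II genes, in bases from the transcription start at 0. The boxes keep a gap of 20 to 23 bases, and the pair lies closer to the start in H2-Eb1, H2-DMb1 and H2-Ob than in H2-Eb2 and H2-DMb2.

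The libraries held between 5462555 and 6375069 counts over 16051 to 18771 rows with a read. The most-counted row of the targeted gene, Uhrf1, had 841, 917 and 554 counts in sgNT replicates 1, 2 and 3 against 685, 460 and 409 in sgUhrf1 replicates 1, 2 and 3 (log2 fold change -0.37 ± 0.23 SE, edgeR adjusted p = 0.227). A second Uhrf1 row, over 238 bp of exon, had 76, 133 and 51 against 39, 29 and 36 counts, with no overlap (-1.08 ± 0.39, adjusted p = 0.0524). The site the guide cuts is not given and host RNA is included, so the knockout labels cannot be checked by these levels. Skeletal muscle RNA, measured as the summed CPM of Ckm and Ttn, ran from 0.177 to 248 in sgNT and from 12.1 to 187 in sgUhrf1 tumours and was highest in sgNT replicate 2 and sgUhrf1 replicate 1. B cell marker rows were highest in sgNT replicate 3, with values given below. Values are counts per 1000000 counts (CPM) after TMM scaling, which corrects for library size and composition. A row was called where edgeR's quasi-likelihood test gave an adjusted p under 0.05 over all 10503 rows tested.

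Of the 6 genes, 3 rose in the sgUhrf1 tumours, H2-Eb1, H2-DMa and H2-DMb1, and 0 fell. Over all rows tested, 39.9% passed the threshold in either direction and 20.2% were higher in sgUhrf1 tumours. The median log2 fold change of the 6 genes was 1.33, beside 0.019 over all rows and -0.0043 over the 4577 tested genes named by position. The range within the 6 was wide, from -1.54 for H2-Ob to 3.39 for H2-DMb1.

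H2-Eb1, the beta chain of I-E, stood at 69.8, 40.3 and 92.2 CPM in sgNT replicates 1, 2 and 3 and at 483, 269 and 596 CPM in sgUhrf1 replicates 1, 2 and 3. The lowest sgUhrf1 tumour was 2.91 times the highest sgNT tumour, so the groups did not overlap. The counts behind these values were 441, 272 and 520 against 2729, 1692 and 2710. The mean rose from 67.4 ± 26 to 449 ± 166 CPM (SD, n = 3 each), a log2 fold change of 2.74 ± 0.37 (SE, adjusted p = 0.000798), or 6.66-fold. The short 39 bp row of the same gene, which the naming rule left out, held far fewer counts, between 7 and 160 per tumour. It was also higher in every sgUhrf1 tumour than in any sgNT tumour, by 2.21 ± 0.63 on the log2 scale (adjusted p = 0.021).

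H2-DMa, the alpha chain of DM, stood at 47.8, 46.1 and 83.8 CPM in the sgNT tumours and at 273, 188 and 333 CPM in the sgUhrf1 tumours. The groups again did not overlap, and the smallest gap between them was 2.24-fold. The log2 fold change was 2.16 ± 0.30 (SE, adjusted p = 0.000883), from a mean of 59.3 ± 21.3 to 265 ± 72.9 CPM (SD, n = 3 each), or 4.47-fold. The row rests on 302 to 473 counts per sgNT tumour and 1183 to 1541 per sgUhrf1 tumour. A further row, shared with H2-DMb2 and described below, covers 759 bp of H2-DMa exon. That shared row overlapped between groups and did not pass (-0.098 ± 0.63, adjusted p = 0.917).

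H2-DMb1, a beta chain of DM, showed the greatest fold change of the 6. It stood at 26, 14.2 and 34.9 CPM in the sgNT tumours and at 223, 212 and 349 CPM in the sgUhrf1 tumours. Even the lowest sgUhrf1 tumour was 6.06 times the highest control. The mean went from 25 ± 10.4 to 261 ± 76.5 CPM (SD, n = 3 each), a log2 fold change of 3.39 ± 0.35 (SE, adjusted p = 0.000246), or 10.4-fold. The counts were 164, 96 and 197 against 1258, 1334 and 1589.

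For each of these 3 genes sgUhrf1 replicate 3 was the highest tumour in TMM-scaled CPM and sgNT replicate 2 the lowest. The first rank depends on the scaling, with TMM factors of 1.041 for sgUhrf1 replicate 1 and 0.8134 for replicate 3. In counts, sgUhrf1 replicate 1 was above replicate 3 for H2-Eb1 (2729 and 2710) and H2-DMa (1541 and 1514). Of all rows tested, 26.6% had every sgUhrf1 tumour above every sgNT tumour. With the 2 tumours richest in muscle RNA left out, sgNT replicate 2 and sgUhrf1 replicate 1, the log2 fold changes were 2.41 for H2-Eb1, 1.98 for H2-DMa and 3.20 for H2-DMb1, and all 3 still passed.

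**Figure D2:**
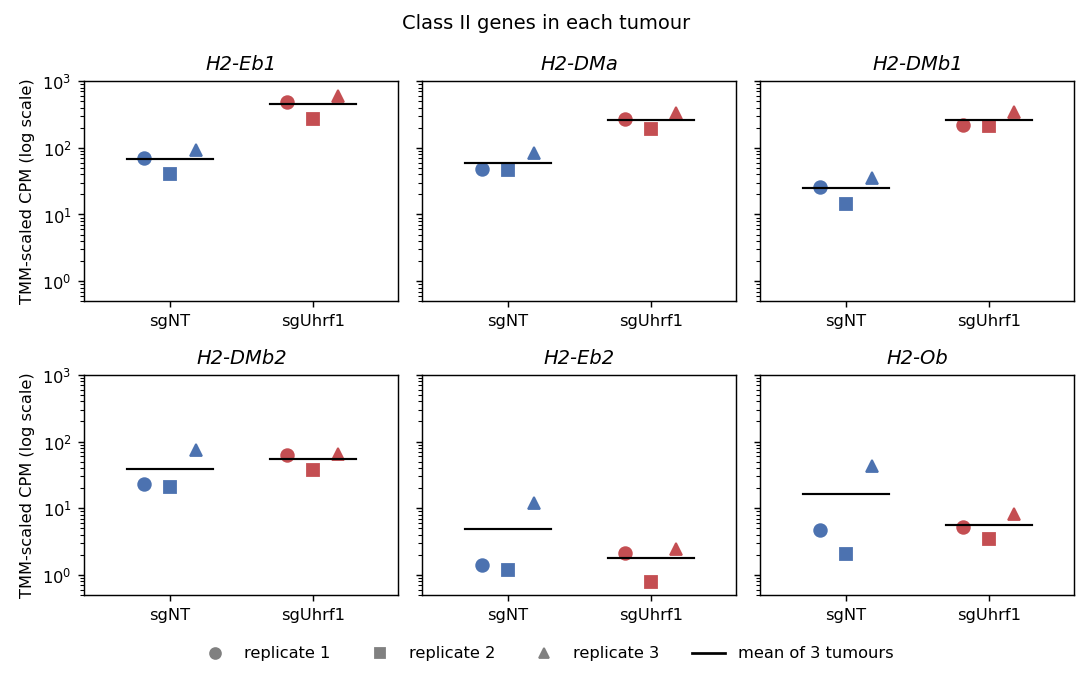
TMM-scaled CPM (log axis) of the 6 class II genes in each tumour; point shape gives the replicate, and the line is the mean of 3 tumours. H2-Eb1, H2-DMa and H2-DMb1 do not overlap between groups, while sgNT replicate 3 (triangle) is the highest of the 6 tumours for H2-DMb2, H2-Eb2 and H2-Ob.

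H2-DMb2, the second DM beta chain gene and near copy of H2-DMb1, did not pass. It stood at 22.8, 20.6 and 73.7 CPM in the sgNT tumours and at 63, 38.1 and 64.9 CPM in the sgUhrf1 tumours. Replicates 1 and 2 of sgNT lay below every sgUhrf1 tumour and replicate 3 above all of them. The log2 fold change was 0.50 ± 0.47 (SE, adjusted p = 0.418). Without sgNT replicate 3 it was 1.34 ± 0.31 (adjusted p = 0.0149) and passed, on means of 21.7 and 55.3 CPM. This row also holds 1484 bp of H2-DMb1 intron and 103 bp of the exon that is identical in both genes. In the same fit H2-DMb1 rose by 3.70 ± 0.37 on the log2 scale. The part of H2-DMb1 reads in the H2-DMb2 values was not tested. A row shared by exons of H2-DMa and H2-DMb2 showed the same high control: 8.55, 4.89 and 34 CPM in sgNT and 17.2, 9.05 and 18 CPM in sgUhrf1 tumours, with a log2 fold change of -0.098 ± 0.63 (adjusted p = 0.917).

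H2-Ob, the beta chain of DO, stood at 4.75, 2.08 and 42.4 CPM in the sgNT tumours and at 5.31, 3.49 and 8.14 CPM in the sgUhrf1 tumours. Only sgNT replicate 3 stood apart, with 239 counts beside 14 to 37 in the other tumours. The log2 fold change of -1.54 ± 0.94 (SE) did not pass (adjusted p = 0.219), and without that tumour the value turned to 0.72 ± 0.60 (adjusted p = 0.413). With no filter on low counts it was -1.61 and passed (adjusted p = 0.000593); with the other alternatives run it did not. DO's alpha chain gene, H2-Oa, could be measured only in a row shared with the gene CR974462.2, which held 5.07, 1.78 and 14.5 CPM in sgNT and 10.4, 4.92 and 16.1 CPM in sgUhrf1 tumours. That shared row did not pass either (0.56 ± 0.69, adjusted p = 0.551; 1.61 ± 0.65, adjusted p = 0.0959, without sgNT replicate 3).

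H2-Eb2, a class II beta chain gene beside H2-Eb1, was the least counted of the 6. It stood at 1.43, 1.19 and 11.9 CPM in the sgNT tumours and at 2.12, 0.794 and 2.42 CPM in the sgUhrf1 tumours, from 9, 8 and 67 counts against 12, 5 and 11. Again only sgNT replicate 3 was high. The log2 fold change of -1.44 ± 0.91 (SE, adjusted p = 0.237) turned to 0.42 ± 0.79 (adjusted p = 0.73) without it. At 5 to 12 counts in each of the other 5 tumours, a difference between groups of the size of their scatter was not detectable at this depth.

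With sgNT replicate 3 left out, 4 of the 6 genes were higher in sgUhrf1 tumours, where 14.5% of all rows tested were. Of these 4, H2-DMb2 is read in a row that also holds H2-DMb1 intron. H2-Eb1 then rose by 3.03 ± 0.41, H2-DMa by 2.49 ± 0.30 and H2-DMb1 by 3.70 ± 0.37 on the log2 scale. The remaining pair of sgNT tumours is assumed in this fit to vary like the sgUhrf1 tumours.

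**Figure D3:**
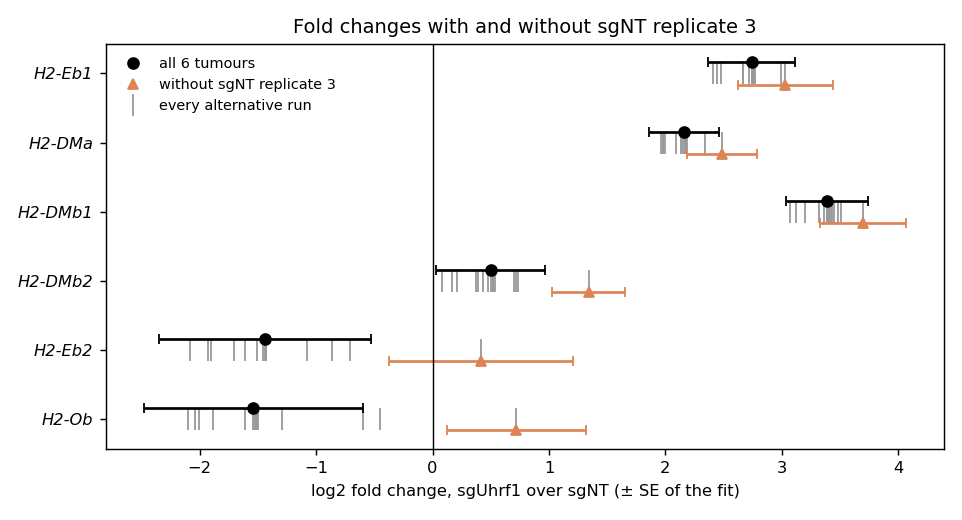
Log2 fold change of the 6 genes, sgUhrf1 over sgNT, with the standard error of the fit, for all 6 tumours (black circles) and without sgNT replicate 3 (orange triangles); grey ticks are all alternatives run. H2-Eb1, H2-DMa and H2-DMb1 keep to between 1.96 and 3.70, and H2-Eb2 and H2-Ob lie above 0 only without sgNT replicate 3.

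The height of sgNT replicate 3 differed between genes. Relative to the mean of sgNT replicates 1 and 2, it was 1.67-fold for H2-Eb1, 1.74-fold for H2-DMb1 and 1.79-fold for H2-DMa. It was 3.4-fold for H2-DMb2, 9.1-fold for H2-Eb2 and 12.4-fold for H2-Ob. Of the 10503 rows tested, 113 (1.08%) were at least 3 times higher in sgNT replicate 3 than in that mean, and this tumour was the highest of all 6 in 18% of rows.

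B cell markers stood high in the same tumour. Of the 9 markers, 7 had a row, 2 of them of their own, and sgNT replicate 3 was the highest tumour in all 7. Ms4a1, the gene of the B cell surface protein CD20, had 0, 2 and 329 counts in sgNT against 0, 1 and 3 in sgUhrf1 tumours. A row shared by Pax5, the B cell identity factor, held 3, 1 and 361 against 4, 5 and 16 counts, and a row shared by Cd22, a B cell receptor inhibitor, 12, 8 and 119 against 22, 19 and 29. The summed CPM of the own rows of Ms4a1 and Blk, a kinase of the B cell receptor pathway, was 0.95, 0.445 and 71.1 in sgNT and 7.26, 11.3 and 9.24 in sgUhrf1 tumours. No B cell marker row passed the test between groups (0 of 1 own and 0 of 4 shared rows tested; Blk 0.98 ± 1.00, adjusted p = 0.464). The part of B cell RNA in the values of H2-Ob, H2-Eb2 and H2-DMb2 was not tested. Without that tumour, as given above, H2-DMb2 passed and H2-Ob and H2-Eb2 lost their negative sign.

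**Figure D4:**
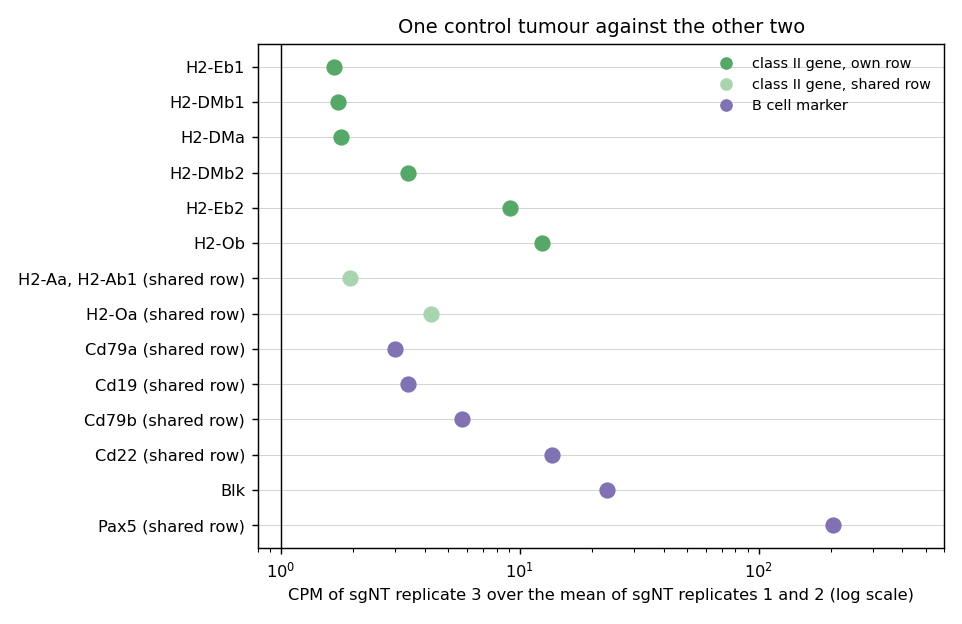
CPM of sgNT replicate 3 over the mean of sgNT replicates 1 and 2 (log axis) for class II genes (green, pale for rows shared with other genes) and 6 B cell markers (purple); the vertical line marks equal values, and Ms4a1 is left out because sgNT replicates 1 and 2 held 0 and 2 counts of it. H2-Eb1, H2-DMb1 and H2-DMa lie between 1.67 and 1.79, and H2-Ob reaches 12.4.

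Ratios of 2 rows within a tumour do not depend on its library size; they were chosen after the values were seen. The ratio of H2-DMb1 to H2-DMb2 counts was 1.14, 0.691 and 0.474 in sgNT against 3.53, 5.56 and 5.39 in sgUhrf1 tumours, a difference of 2.72 on the log2 scale. The H2-DMb1 to H2-DMa ratio was 0.543, 0.309 and 0.416 against 0.816, 1.13 and 1.05, a difference of 1.26. Both were higher in each sgUhrf1 tumour than in any sgNT tumour. The ratio of H2-DMa to H2-Ob, the alpha chain of DM to the beta chain of its inhibitor, was 10.1, 22.2 and 1.98 against 51.4, 53.8 and 40.9. That of H2-Eb1 to H2-Eb2 was 49, 34 and 7.76 against 227, 338 and 246. For each of these 4 ratios the two-sided exact permutation p over tumours was 0.10, the smallest that 3 tumours against 3 allow. Benjamini-Hochberg adjustment over the 4 left it at 0.10 and does not account for ratios not chosen. Since the ratios were picked from these values, the p-values only describe the separation. H2-Eb1 over H2-Eb2 also divides by 5 to 12 counts in all tumours but sgNT replicate 3, and H2-DMa over H2-Ob by 14 to 37. The H2-DMb2 row also holds 1484 bp of H2-DMb1 intron, so H2-DMb1 over H2-DMb2 does not fully separate the 2 genes. The rows differ in exon length, so the size of a ratio is not a ratio of transcript numbers, and only its change between tumours is given here.

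**Figure D5:**
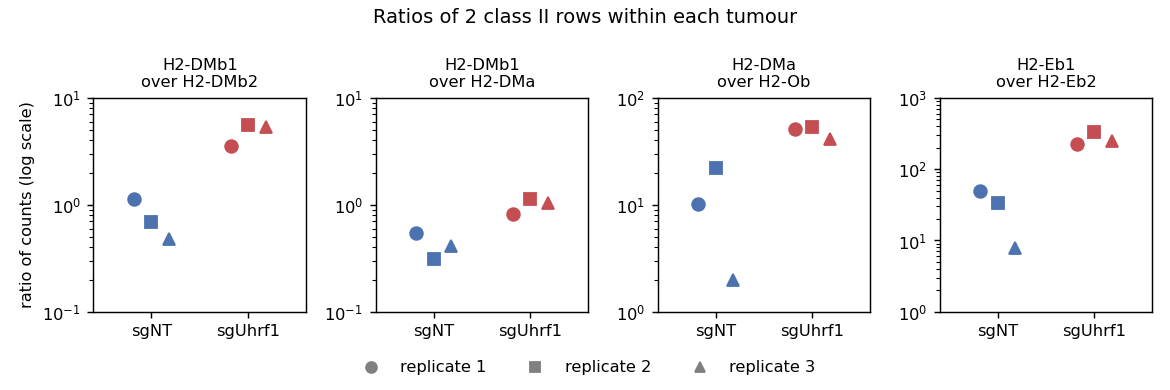
Ratio of the counts of 2 class II rows within each tumour (log axes of different range), sgNT in blue and sgUhrf1 in red, with point shape for the replicate. In the 4 panels every sgUhrf1 tumour lies above every sgNT tumour, for H2-DMb1 over H2-DMb2 between 3.53 and 5.56 against 0.474 and 1.14.

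The 6 genes belong to a list of 25 genes of class II presentation, of which 11 had a row of their own that was tested. Of these 11, 4 rose and 1 fell, with a median log2 fold change of 0.46. Without the 6 genes described above, 5 were tested, of which 1 rose and 1 fell (median -0.051), beside 20.2% of all rows higher in sgUhrf1 tumours. With rows shared by other genes counted too, 18 rows were tested, of which 6 rose and 2 fell (median 0.45). H2-Ea, Cd74, Rfx5, Rfxank, Nfyb and March1 were not analysed here.

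The chains of I-A, the class II molecule that C57BL/6 mice display, share a row. H2-Aa and H2-Ab1 together stood at 835, 476 and 1278 CPM in the sgNT tumours and at 5742, 3246 and 8096 CPM in the sgUhrf1 tumours, with no overlap. The row rose by 2.72 ± 0.43 on the log2 scale (SE, adjusted p = 0.00166), or 6.60-fold, beside 6.66-fold for H2-Eb1. In sgNT replicate 3 it was 1.95 times the mean of the other sgNT tumours.

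Among the regulators, CIITA's gene could be read only in a row that also covers exons of Clec16a, Nubp1 and Tvp23a. That row held 32.5, 35.3 and 47.7 CPM in sgNT and 46.7, 40.3 and 41.3 CPM in sgUhrf1 tumours (0.15 ± 0.22, adjusted p = 0.603), so the level of Ciita itself is not resolved. Nfya, a subunit of NF-Y, fell from 18.7, 26.5 and 26.8 CPM to 9.74, 12.2 and 8.58 CPM. Its log2 fold change was -1.23 ± 0.28 (adjusted p = 0.00835). It no longer passed without both muscle-rich tumours (-1.13, adjusted p = 0.109). Nfyc, another NF-Y subunit, had a log2 fold change of -0.58 ± 0.27 in its main row (adjusted p = 0.119) and of -1.31 ± 0.34 in a second row (adjusted p = 0.014). The second row lost its call without sgNT replicate 2 (adjusted p = 0.0517) and without both muscle-rich tumours (adjusted p = 0.0967). Rfxap, a subunit of RFX, had 0.46 ± 0.18 (adjusted p = 0.0695), and the shared row of Creb1 -0.33 ± 0.18 (adjusted p = 0.187).

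Among the enzymes, Ctss, the protease that trims the invariant chain, stood at 294, 200 and 218 CPM in the sgNT tumours and at 658, 398 and 882 CPM in the sgUhrf1 tumours. It rose by 1.44 ± 0.29 on the log2 scale (adjusted p = 0.00481), and its value without both muscle-rich tumours was 1.32 (adjusted p = 0.0531). A second Ctss row rose by 0.77 ± 0.23 (adjusted p = 0.0272), but not when sgNT replicate 2 or 3, sgUhrf1 replicate 1 or 3, or both muscle-rich tumours were left out (adjusted p of 0.061 to 0.172). The shared row of Ifi30, the thiol reductase of the endosome, rose by 1.01 ± 0.21 (adjusted p = 0.00556). Ctsl, a related protease, stood at 313, 292 and 357 against 288, 210 and 432 CPM (-0.051 ± 0.25, adjusted p = 0.89), and the shared row of the endosomal protease gene Lgmn had 0.44 ± 0.21 (adjusted p = 0.128). The row shared by March8, a ubiquitin ligase that removes class II from the surface, fell by 1.13 ± 0.30 (adjusted p = 0.0152). It lost its call without sgNT replicate 2 (adjusted p = 0.0629) and without both muscle-rich tumours (adjusted p = 0.164).

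The 4 genes of class I presentation read for reference all rose, where 20.2% of all rows tested were higher in sgUhrf1 tumours. The heavy chain gene H2-K1 rose by 3.17 ± 0.42 on the log2 scale (adjusted p = 0.000753). Nlrc5, the class I counterpart of CIITA, rose by 2.60 ± 0.46 (adjusted p = 0.00261). The proteasome subunit gene Psmb9 rose by 3.87 ± 0.51 (adjusted p = 0.000732) and the peptide transporter gene Tap2 by 3.57 ± 0.31 (adjusted p = 0.000136). No test of the difference between class I and class II genes was run.

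Markers of cells that can carry class II moved unequally with the groups. Of all rows tested, 20.2% were higher in sgUhrf1 tumours and 39.9% passed in either direction. Of 13 dendritic cell genes, 4 had an own row that was tested; Ccl22 rose by 3.68 ± 0.38, Itgax by 2.15 ± 0.29 and Irf8 by 1.80 ± 0.31, and Wdfy4 fell by 1.89 ± 0.57 on the log2 scale (adjusted p = 0.027). Wdfy4 lost its call in 7 alternatives, among them without sgNT replicate 2 (adjusted p = 0.0825) or 3 (adjusted p = 0.14). The own rows of Flt3 and Zbtb46, on the same list, were not tested and did not rise with the group. Flt3 held 0, 0 and 0 counts in sgNT and 0, 2 and 0 in sgUhrf1 tumours. Zbtb46 held 5, 5 and 3 against 6, 4 and 0. The summed CPM of the dendritic list's own rows ran from 54.8 to 92.3 in sgNT and from 209 to 341 in sgUhrf1 tumours. Irf8 was the largest part of this sum in every tumour, at 30.1, 37.8 and 66.3 CPM in sgNT and 146, 122 and 198 CPM in sgUhrf1 tumours. Of 13 monocyte and macrophage genes, 4 had an own row that was tested and 0 passed, with sums of 488 to 777 and 277 to 942 CPM. Of 9 pan-leukocyte genes, 4 were tested in an own row and 1 passed, Vav1, which rose (1.87 ± 0.38, adjusted p = 0.00508). Ptprc (0.30 ± 0.36), Lcp1 (-0.46 ± 0.27) and Itgb2 (-1.08 ± 0.41, adjusted p = 0.0605) did not pass. The median of the 4 was -0.078, and their list summed to 86.3 to 125 CPM in sgNT and 75.1 to 156 CPM in sgUhrf1 tumours.

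Of 12 T cell genes, all 4 with an own row that was tested rose, Cd8b1 by 3.76 ± 0.51, Lck by 3.29 ± 0.62, Zap70 by 2.95 ± 0.54 and Lat by 2.70 ± 0.40, with sums of 7.26 to 23.9 CPM in sgNT and 81.4 to 214 CPM in sgUhrf1 tumours. Of 12 interferon-gamma genes, 3 of the 5 tested rose, Cxcl11 by 6.30 ± 0.53, Gbp6 by 3.77 ± 0.47 and Irgm2 by 2.92 ± 0.28, while Jak2 (0.49 ± 0.19, adjusted p = 0.0618) and Ifngr1 (-0.21 ± 0.24, adjusted p = 0.521) did not pass. The sums of this list were 174 to 210 CPM in sgNT and 488 to 826 CPM in sgUhrf1 tumours. Beside these counts of T cell and interferon-gamma genes, 20.2% of all rows tested were higher in sgUhrf1 tumours. Of 6 costimulation genes, Cd86 was tested in an own row and stood at 0.23 ± 0.40 (adjusted p = 0.679), with sums of 3.41 to 3.9 and 3.17 to 5.13 CPM.

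Of 7 epithelial genes, which can mark the cancer cells, 2 had an own row that was tested and both rose, Krt7 by 3.55 ± 0.66 and Cdh1 by 2.53 ± 0.29, with sums of 155 to 435 and 1678 to 2806 CPM. Among all rows tested, 20.2% were higher in sgUhrf1 tumours. The row shared by Epcam rose (2.30 ± 0.49, adjusted p = 0.0059). The row shared by Krt8, the most counted of the list, overlapped between groups at 5692 to 8315 and 6368 to 13202 CPM and did not pass (0.55 ± 0.32, adjusted p = 0.198). The row shared by Nkx2-1, a lung lineage factor, held 1 count in sgUhrf1 replicate 2 and 0 in the other tumours. Of the 7 skeletal muscle genes, Ckm was tested in an own row and did not pass (-0.19 ± 1.61, adjusted p = 0.937). The part of any of these cell types or of interferon-gamma in the class II values was not tested.

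Genes that closely followed the mean log2 CPM of the class II genes over the 6 tumours were sought among 4379 genes named by position whose own mean was 1 or more on that scale. The closest included Nme6 (Pearson r of 0.989), Slco2a1 (0.988), Gm10638 (0.980) and Fam167b (0.973). Of these 4, Fam167b rose (log2 fold change 1.33 ± 0.45, adjusted p = 0.0423) and the other 3 did not pass. The points share their libraries and their group difference, and with so many genes compared over 6 tumours these correlations only describe the likeness. The mean joins H2-Eb1, H2-DMa and H2-DMb1, highest in sgUhrf1 replicate 3, with H2-DMb2, H2-Eb2 and H2-Ob, highest in sgNT replicate 3. Likeness to the mean is therefore not likeness to each gene.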

How the data were processed

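Poly(A) RNA of 6 tumours was sequenced in pairs, per the labels' protocols. The deposited values are raw counts, whole numbers for each listed row, made by the authors with featureCounts 2.0.1 over exons without a strand setting, per the file headers. Trimming with fastp, alignment with STAR and the build GRCm38 are named in the submitters' processing notes, without versions. The headers name GENCODE M26, which is drawn on a later build, so rows were renamed by position: a row took the name of the only GENCODE M21 gene whose exons it covered by at least 50 bp, small RNAs ignored. This named 13437 rows with 40.3% of the counts; rows over several genes held 57.9% and are given as shared rows. Row names do not decide which reads were counted, but introns and neighbours inside a row's intervals are counted with it.

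Rows were tested with edgeR 4.0.16 (R 4.3.3), with TMM and filterByExpr at a minimum count of 10 and a minimum total of 15. The test was the quasi-likelihood F test with Benjamini-Hochberg adjustment and a threshold of 0.05. A run on simulated counts used the fit's own dispersion and no outlying tumour, so it cannot show how the test behaves with such tumours. Standard errors come from the fit to the 6 tumours. The p-values measure the spread between these tumours, not between independently made lines. A difference between the sgNT and sgUhrf1 lines other than the guide cannot be told apart from it. Alternatives were limma-voom (limma 3.58.1), DESeq2 1.42.0, other scaling, filters and naming, and tumours left out. The genes and lists were chosen with earlier results of these data known. Named were all 6 genes, every gene of the class II list with a row tested, up to 4 members past the threshold per marker list, 4 class I genes, and the 5 genes closest to the mean of the 6, of which 1 is not reported here. Coding sequence comes from the GENCODE M21 transcripts.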

Additional observations from a re-analysis of the deposited data

How the results depend on the processing

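The number of the 6 class II genes past the threshold lay between 2 and 4 over 15 alternatives. It was 4 without sgNT replicate 3, where H2-DMb2 passed as higher in a row that also holds H2-DMb1 intron. It was also 4 with no filter on low counts, where H2-Ob passed as lower. It was 2 with at least 200 bp of exon, where H2-Eb1 has no row. H2-Eb1 (2.41 to 3.03), H2-DMa (1.96 to 2.49) and H2-DMb1 (3.07 to 3.70) kept their direction and their call wherever they were tested. Without sgNT replicate 3, H2-Eb2 (0.42) and H2-Ob (0.72) reversed; with single tumours left out they ran from -1.93 to 0.42 and from -2.10 to 0.72. H2-Eb2 was not tested under the stricter filter (minimum count 30). Of the class II list, 5 genes passed. This was 3 with at least 200 bp of exon, where fewer genes had a row, 3 without sgNT replicate 2 and sgUhrf1 replicate 1, an alternative added after seeing the data, and 8 with shared rows counted. With single tumours left out it was 5 to 6. Of all rows 4187 passed, 1865 without both of those tumours and 2690 to 3928 with single tumours left out, the lowest without sgNT replicate 2; these fits have fewer samples.

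With the replicate number as a block, 3 class II genes, 5 genes of the class II list and 3645 rows passed. The numbers only name the tumours: deviations of same-numbered tumours from their group means correlated at -0.079, -0.021 and 0.050 across rows, and not every tumour correlated best with its own number. At 5 to 12 counts in 5 of the 6 tumours, depth limits H2-Eb2.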
